A study of Homo sapiens with 13 samples.

Results

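The 9 genes described here encode exchange factors of the DOCK and FGD families, namely DOCK1, DOCK4, DOCK5, DOCK6, DOCK9, FGD1, FGD2, FGD4 and FGD6. They were chosen by name, with their mean read counts in both comparisons of the study already known, out of 23886 listed gene symbols. Their own values are therefore a description and carry no test. All 9 were found in both deposited tables, and 8 of them reached an overall mean of 10 normalised reads in each table, FGD1 being the exception. The values come from polyadenylated RNA of DLD-1 cells, an established colorectal adenocarcinoma line, transfected with 50 nM of small interfering RNA (siRNA) and harvested 72 h later. In experiments 1 and 2, an siRNA against the transcription factor SOX9 (siSOX9, 4 samples) was set against a control siRNA (siCtrl, 3 samples). Experiment 1 gave 2 siCtrl and 3 siSOX9 samples, and experiment 2 gave 1 of each. The deposited means of these arms pool both experiments. In experiment 3, 2 siRNAs against Y14 (siY14, 2 samples each) were set against siCtrl (2 samples). All samples are of 1 cell line, every knockdown is transient, and the deposited siY14 values pool both siRNAs.

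Small GTPases of the RAC and CDC42 type switch between a GDP-bound resting form and a GTP-bound active form, and in the active form they drive the assembly of actin into membrane ruffles, lamellipodia and filopodia. Exchange factors load them with GTP, while GTPase-activating proteins (GAPs) and dissociation inhibitors (GDIs) return them to rest or hold them there. DOCK proteins do this with a DHR2 domain, many of them together with ELMO and CRK adaptors, and act on RAC, on CDC42 or on both. FGD proteins use the DH domain of the Dbl family and act mainly on CDC42. In gut epithelium both GTPases take part in cell shape, polarity, junctions and migration. Y14, the product of RBM8A, belongs to the exon junction complex, which marks spliced mRNA.

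Each deposited table gives 1 mean normalised read count per arm and gene. Whole reads of the single libraries were recovered from these means for 8 of the 9 genes in both arms of each table, DOCK1 being recovered in the siCtrl arms only. For some members more than 1 set of whole reads gave the knockdown mean, and the likeliest was kept. In the siY14 arm there were 4 sets for DOCK5, 2 for DOCK6 and 6 for DOCK9. In the siSOX9 arm there were 9 for DOCK4 and 2 each for DOCK5 and DOCK6. A normalised read count is a library's reads divided by its size factor, and a recovered library has no sample name, so the letters a to d only order the libraries of an arm by depth. Estimated depth was 24.8 to 184 M counts for libraries of the siSOX9 table, 49.5 to 71.6 M for the siY14 libraries, and 67.1 and 47.2 M for their siCtrl libraries. Library a of each arm of the siSOX9 table, with 179 and 184 M counts, stood far above the others, whose highest was 41.7 M. The siY14 libraries stood apart in a different way, since over 3146 genes the deviations of a and c from the arm mean were alike (correlation 0.88), as were those of b and d (0.87). The labels give 2 samples to each Y14 siRNA, but which recovered library belongs to which siRNA cannot be told. Nothing in them states that replicates came from different cultures, so p-values measure only a spread between samples that may be technical. SOX9 fell from 24468 to 9067 in the authors' deposited siSOX9 table (log2 fold change -1.43, adjusted p = 1.40e-04), and RBM8A was listed at 0 in both tables, which leaves the Y14 knockdown unchecked here. Of 10 markers of colon epithelium, 9 had an overall mean of at least 10 in each table, with a summed arm mean of 306211 to 429035, while 10 blood cell markers summed to 69.3 to 122 and 8 markers of fibroblasts and endothelium to 87.1 to 182. With siSOX9, the enterocyte genes KRT20 and VIL1 rose and fell, the collagen genes COL1A1 and COL3A1 rose and PDGFRB fell, and with siY14 CDH1, KRT20, VIL1 and LGALS4 fell, while 0 blood cell markers passed in either table. MS4A1 was at 0 in both tables, COL1A2 in the siSOX9 one, and CD3E, LCP2 and DCN in the siY14 one. The part of these markers in the members' values was not tested.

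In control levels, taken as siCtrl normalised reads per kilobase of the longest coding transcript, the mean of every DOCK member stood above that of every FGD member in both tables. DOCK1, the founding member and a RAC exchange factor that works with ELMO proteins, had the highest level at 875 ± 23.2 (SD, n = 3) per kb in the siSOX9 table. DOCK6, which acts on both RAC and CDC42, followed at 570 ± 67.7 (SD, n = 3). DOCK5, a close relative of DOCK1, had 332 ± 14.0 (SD, n = 3) and DOCK9, a CDC42-specific member also known as zizimin, had 323 ± 31.5 (SD, n = 3), and the siCtrl libraries of these neighbours overlapped. DOCK4, a RAC exchange factor, had 167 ± 21.4 (SD, n = 3) per kb and overlapped with FGD2 at 149 ± 20.4 (SD, n = 3). FGD6 had 126 ± 3.21 (SD, n = 3) and FGD4, also called frabin and able to bind filamentous actin, had 107 ± 13.3 (SD, n = 3). FGD1, the gene mutated in faciogenital dysplasia, was barely detected at 1.78 ± 1.13 (SD, n = 3) per kb.

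The order differed in the siCtrl arm of experiment 3, a table that was normalised separately. DOCK1 again led with 1199 ± 22.9 (SD, n = 2) per kb, followed there by DOCK9 with 577 ± 3.79 (SD, n = 2), DOCK5 with 490.0 ± 5.93 (SD, n = 2) and DOCK6 with 432 ± 4.81 (SD, n = 2). DOCK4 at 211 ± 4.58 (SD, n = 2), FGD4 at 205 ± 2.81 (SD, n = 2) and FGD6 at 197 ± 4.67 (SD, n = 2) lay close together, while FGD2 had 86.4 ± 1.44 (SD, n = 2) and FGD1 had 0.822 ± 0.32 (SD, n = 2). No neighbours in this order overlapped, with 2 libraries per gene.

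DOCK4 was the member with the largest gain, and it was higher in both knockdowns. In the siSOX9 table, its siCtrl libraries a to c held 1369, 1493 and 1154 normalised reads, and the siSOX9 libraries a to d held 3596, 3298, 3943 and 3618. Every siSOX9 library lay above every siCtrl library. The arm means were 1339 ± 171 (SD, n = 3) and 3614 ± 263 (SD, n = 4), a 2.70-fold higher level and a log2 difference of 1.43. In the siY14 table its siCtrl libraries held 1714 and 1662 normalised reads, and siY14 libraries a to d held 2619, 2548, 2580 and 2506. All 4 siY14 libraries lay close to each other and above both siCtrl libraries. The arm means were 1688 ± 36.6 (SD, n = 2) and 2563 ± 48.0 (SD, n = 4), a 1.52-fold higher level and a log2 difference of 0.60. In a whole culture, more cells that express a gene and more RNA per cell cannot be told apart. Both values passed the authors' adjusted p of 0.05, as values that were known when the gene was chosen.

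**Figure D1:**
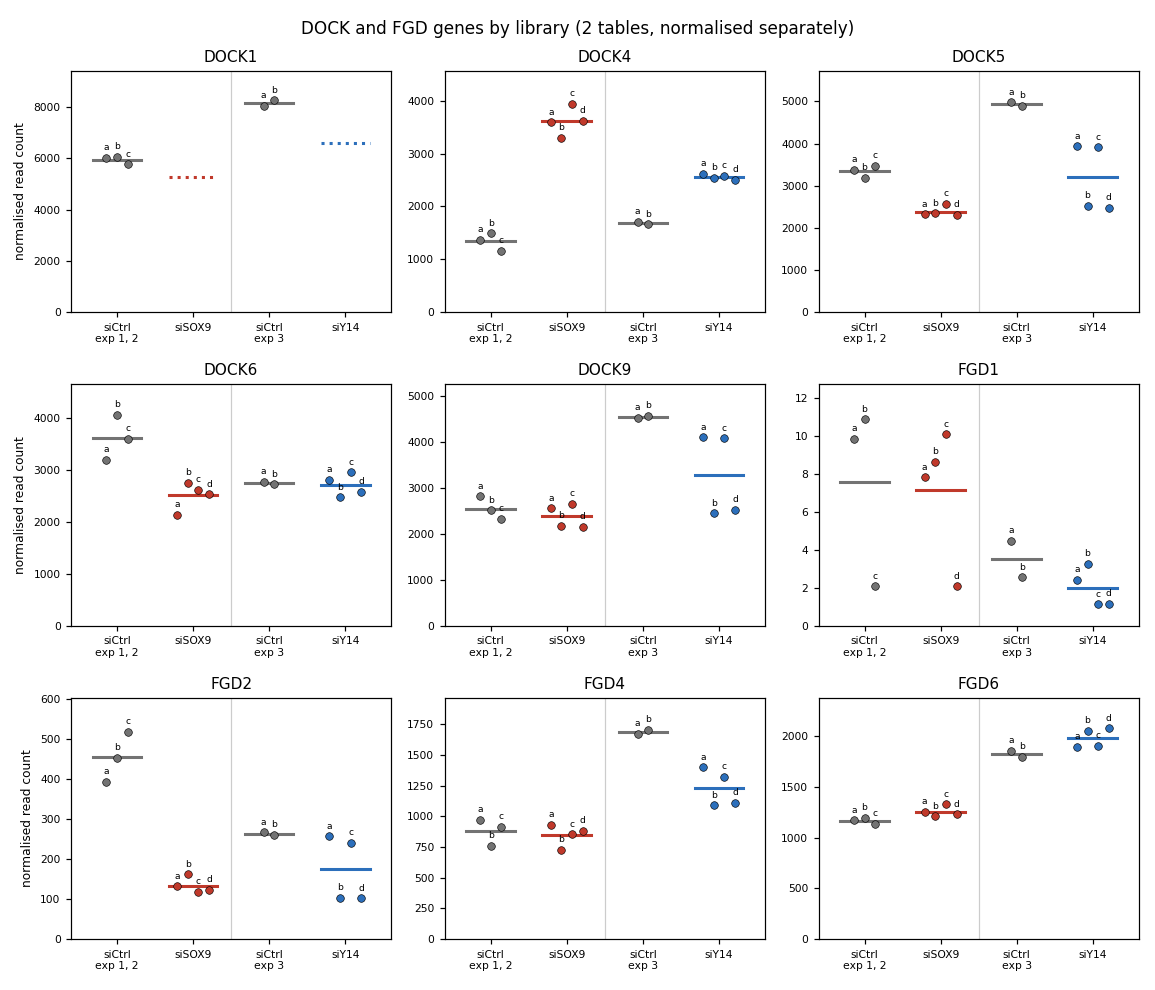
Normalised read counts (vertical axis, from 0) of the 9 genes, 1 panel each, in the siCtrl and knockdown libraries of both tables. Points are recovered libraries lettered by depth, solid bars their means, and dotted bars deposited means whose libraries were not recovered. DOCK4 lies above siCtrl in both knockdowns, and the 4 siY14 libraries of DOCK5, DOCK9 and FGD2 fall into a high and a low pair. For DOCK5 and DOCK9 these siY14 reads are the likeliest of several possible sets.

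The start of DOCK4 and those of FGD6 and DOCK9 are shown for comparison. DOCK4 and FGD6 were the members above siCtrl in both tables, and DOCK9 was among the 7 with a mean below it. The siSOX9 libraries of DOCK9 overlapped siCtrl, so it is no example of a lowered gene there. Neither FGD6 nor DOCK9 passed the authors' threshold in either table. The stretches lie upstream of RefSeq transcription starts in GRCh38.p14 and leave out every annotated exon of GENCODE 29. They are read 5′ to 3′ along the gene, and capitals mark ACAAT, the core letters of the motif that SOX proteins bind, on either strand (ATTGT on the other strand). DOCK4 lies at chr7:112206412-112206587 on the minus strand, FGD6 at chr12:95217483-95217717 on the minus strand, and DOCK9 has an upstream start at chr13:99086695-99086944 and an internal one at chr13:98978085-98978314, both on the minus strand.
DOCK4: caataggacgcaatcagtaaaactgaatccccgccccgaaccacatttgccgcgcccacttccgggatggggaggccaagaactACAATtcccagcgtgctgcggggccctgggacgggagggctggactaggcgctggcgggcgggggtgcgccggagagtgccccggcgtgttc
FGD6: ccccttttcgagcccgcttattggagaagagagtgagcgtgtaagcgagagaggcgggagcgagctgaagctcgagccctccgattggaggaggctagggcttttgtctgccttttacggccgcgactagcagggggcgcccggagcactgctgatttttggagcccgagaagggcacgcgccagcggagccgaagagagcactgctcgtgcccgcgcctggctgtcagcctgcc
DOCK9, upstream start: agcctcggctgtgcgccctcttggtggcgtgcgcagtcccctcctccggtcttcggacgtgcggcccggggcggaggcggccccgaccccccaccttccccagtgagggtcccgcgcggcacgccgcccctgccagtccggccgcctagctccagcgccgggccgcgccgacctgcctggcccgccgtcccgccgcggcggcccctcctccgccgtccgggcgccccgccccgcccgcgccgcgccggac
DOCK9, internal start: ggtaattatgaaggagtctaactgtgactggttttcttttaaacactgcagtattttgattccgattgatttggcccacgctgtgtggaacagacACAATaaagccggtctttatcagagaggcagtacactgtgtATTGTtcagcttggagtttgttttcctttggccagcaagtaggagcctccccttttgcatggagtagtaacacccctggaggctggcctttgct

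RefSeq promoters, taken as 250 bases before and 50 after a start, were matched for 6 of the 9 genes, with 11 promoters among them. ACAAT occurred in 4 of these 11, which belong to DOCK4, DOCK9 and FGD4, and in 27.4% of all 35116 promoters of the same length. The related letters ACAAAG occurred in 2 of the 11 and in 16.1% of all. The FGD4 matches of both sets of letters lie in overlapping windows of neighbouring starts and are the same sites. The DOCK4 promoter held ACAAT at 104 bases before its start and again 8 bases after it, past the printed stretch. It had a GC content of 64.0% with 31 CpG dinucleotides, against medians of 58.7% and 14 over all promoters. Both FGD6 and the upstream start of DOCK9 held neither set of letters, with GC contents of 68.3% and 82.3%, whereas the internal DOCK9 start had 50.7% and ACAAT on both strands. A match of these letters is a description of the sequence and does not show binding. The DOCK4 start lies 189 bases from that of ZNF277, a zinc finger gene read from the opposite strand. ZNF277 had 1857 and 2114 mean normalised reads in the siCtrl and siSOX9 arms of the authors' deposited table (log2 difference 0.19, adjusted p = 1), and 2813 and 2538 in the siY14 table (log2 difference -0.15, adjusted p = 0.709).

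FGD2, an exchange factor for CDC42, was the member with the largest loss after SOX9 knockdown. Its siCtrl libraries a to c held 393, 452 and 517 normalised reads, and siSOX9 libraries a to d held 132, 162, 118 and 122. All siSOX9 libraries lay below all siCtrl libraries. The arm means were 454 ± 62.1 (SD, n = 3) and 133 ± 19.8 (SD, n = 4), a 3.40-fold lower level and a log2 difference of -1.77. In experiment 3 the siCtrl libraries held 266 and 260.0 normalised reads, while siY14 libraries a to d held 256, 103, 240 and 102. Libraries a and c lay just below siCtrl, and b and d lay far below it. The siY14 arm mean of 175 ± 84.4 (SD, n = 4) against 263 ± 4.39 (SD, n = 2) gave a log2 difference of -0.59 that did not pass the authors' threshold.

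Among the RAC-directed DOCK members, DOCK5 was lower in both knockdowns. Its siCtrl libraries held 3373, 3192 and 3471 normalised reads in experiments 1 and 2, and its siSOX9 libraries held 2319, 2344, 2569 and 2308. These arms did not overlap, with means of 3345 ± 141 (SD, n = 3) and 2385 ± 124 (SD, n = 4) and a log2 difference of -0.49. In experiment 3 the siCtrl libraries held 4979 and 4895, and siY14 libraries a to d held 3935, 2526, 3911 and 2481. Here too no siY14 library reached siCtrl, but libraries a and c were at 79.7% and 79.2% of the mean siCtrl level and b and d at 51.2% and 50.2%. The arm means of 4937 ± 59.7 (SD, n = 2) and 3213 ± 820 (SD, n = 4) gave a log2 difference of -0.62. Neither difference passed the authors' threshold.

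DOCK1, the most abundant member, could be compared by its deposited means only, as its knockdown libraries were not recovered. In the authors' deposited tables its mean was 5945 with siCtrl and 5258 with siSOX9, a log2 difference of -0.18, and 8146 with siCtrl and 6579 with siY14, a log2 difference of -0.31. The siCtrl libraries spanned 5764 to 6051 and 8036 to 8257 normalised reads, so both knockdown means lay below the lowest siCtrl library. Whether the single knockdown libraries overlapped siCtrl is not known, and neither difference passed the authors' threshold. Exons of DOCK1 overlap antisense genes, and whether reads were counted by strand is not given in the sources used here.

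DOCK6 was lower with siSOX9. Its siCtrl libraries held 3200, 4060 and 3604 normalised reads in experiments 1 and 2, and its siSOX9 libraries 2142, 2750, 2615 and 2532. No siSOX9 library reached the lowest siCtrl library, and the means were 3621 ± 430.3 (SD, n = 3) and 2510 ± 261 (SD, n = 4), a log2 difference of -0.53 that did not pass the authors' threshold. Library a of each arm, the deepest, was the lowest of its arm at 83.5% and 81.4% of the mean of the others, and without both of them the log2 difference was -0.54. In experiment 3 the siCtrl libraries held 2767 and 2723 and siY14 libraries a to d held 2815, 2472, 2957 and 2583, on both sides of siCtrl. The log2 difference of the arm means was -0.02. The exons of DOCK6 share 350 bases with ANGPTL8 on the opposite strand, so its reads are uncertain in the same way as those of DOCK1.

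DOCK9, which acts on CDC42, overlapped between siCtrl and siSOX9. Its siCtrl libraries held 2811, 2509 and 2319 normalised reads and its siSOX9 libraries 2552, 2173, 2644 and 2153, with means of 2546 ± 248 (SD, n = 3) and 2380 ± 254 (SD, n = 4). The log2 difference was -0.10. In experiment 3 its siCtrl libraries held 4528 and 4570, and siY14 libraries a to d held 4096, 2445, 4080 and 2513. All 4 lay below siCtrl, libraries a and c at 90.0% and 89.7% of the mean siCtrl level and b and d at 53.7% and 55.2%. The means of 4549 ± 29.9 (SD, n = 2) and 3284 ± 929 (SD, n = 4) gave a log2 difference of -0.47.

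FGD4, the actin-binding CDC42 factor, was lower with siY14. It held 971, 760 and 913 normalised reads in the siCtrl libraries of experiments 1 and 2 and 931, 729, 853 and 881 in the siSOX9 libraries, which overlapped (means 882 ± 109, SD, n = 3, and 848 ± 86.0, SD, n = 4). In experiment 3 it held 1672 and 1705 with siCtrl and 1398, 1088, 1321 and 1110 in siY14 libraries a to d. All siY14 libraries of FGD4 lay below siCtrl, and the means of 1689 ± 23.2 (SD, n = 2) and 1229 ± 154 (SD, n = 4) gave a log2 difference of -0.46 that did not pass the authors' threshold.

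FGD6 was slightly higher in both knockdowns. Its siCtrl libraries held 1173, 1194 and 1135 normalised reads and its siSOX9 libraries 1258, 1210, 1331 and 1231, with means of 1168 ± 29.8 (SD, n = 3) and 1257 ± 52.7 (SD, n = 4) and a log2 difference of 0.11. In experiment 3 the siCtrl libraries held 1857 and 1796, and siY14 libraries a to d held 1897, 2056, 1905 and 2079, with means of 1826 ± 43.4 (SD, n = 2) and 1984 ± 96.5 (SD, n = 4) and a log2 difference of 0.12. Neither pair of arms overlapped, and neither difference passed the authors' threshold.

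FGD1 rested on few reads. Its siCtrl libraries a to c held 34, 8 and 1 reads and its siSOX9 libraries a to d 28, 7, 6 and 1, which are 9.86, 10.9 and 2.08 normalised reads against 7.83, 8.65, 10.1 and 2.07. In experiment 3 there were 5 and 2 reads with siCtrl and 3, 4, 1 and 1 with siY14, with mean normalised reads of 3.51 and 1.98. These arms overlapped in both tables, and a difference was not detectable at this depth. Exons of FGD1 share 34 bases with TSR2 on the opposite strand, a gene with mean normalised reads of 1950 to 3507 in the 4 arms.

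Set against all genes, the 9 members gave 1 call above and 1 call below siCtrl in the siSOX9 table, DOCK4 and FGD2. Of the 18747 genes with reads there, 3.47% passed the authors' adjusted p of 0.05, 1.19% above and 2.27% below siCtrl. With siY14, 1 member passed above siCtrl, DOCK4, and 0 passed below, where 9.16% of 17706 genes passed, 3.81% above and 5.35% below. Since the members were picked with these values known, nothing is read from their counts. Of the 13186 genes with an overall mean of at least 10 in both tables, 8 passed above siCtrl in both, DOCK4 among them. Of the 7 recovered members with an overall mean of at least 10, 2 lay wholly above siCtrl, 3 wholly below and 2 overlapped in the siSOX9 table, beside 28.9% of 10181 recovered genes above the same mean that did not overlap, 13.3% above and 15.6% below. With siY14, 2 lay above, 4 below and 1 overlapped, beside 61.3% of 9838 recovered genes above that mean that did not overlap, 30.7% above and 30.7% below.

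**Figure D2:**
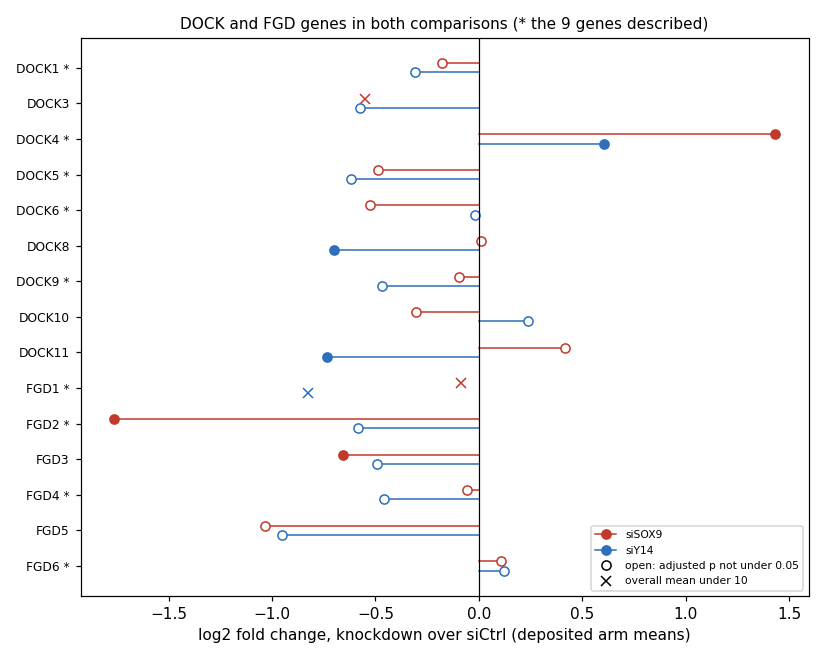
Log2 fold change of knockdown over siCtrl (horizontal axis) from the deposited arm means for the 9 members and other DOCK and FGD genes, in red for siSOX9 and blue for siY14. Filled points passed the authors' adjusted p of 0.05, open points did not, and crosses mark an overall mean under 10. DOCK4 at 1.43 and 0.60 is the only gene of the plot filled in both colours, and FGD2 at -1.77 lies farthest to the left.

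In each comparison, 2 members had a log2 difference above 0 and 7 below 0, and the sign was the same in both tables for 9 of 9, FGD1 with its mean under 10 included. The sign turned when single libraries were left out for FGD1 and FGD4 in the siSOX9 table and for DOCK6 in the siY14 table. Over 13186 genes with an overall mean of at least 10 in both tables, the sign was the same for 52.7%. The tables share no control samples, but the members were chosen with both in view, so this describes them and tests nothing. The median log2 difference of all 9 members, FGD1 included, was -0.10 with siSOX9 and -0.46 with siY14. That of all genes with a mean of at least 10, a filter that FGD1 did not pass, was 0.01 and -0.00122. The genes closest to DOCK4 in the pair of log2 differences, by Euclidean distance over these 2 comparisons among 11068 genes, were OSGIN1 (distance 0.0756), TEX14 (0.144) and COL5A2 (0.161). Those closest to FGD2 were S100P (0.0876), CAPN8 (0.157) and INHBB (0.262). The siY14 value of FGD2 averages libraries a and c (94.3% of siCtrl) with b and d (38.9%), a level that no single library had.

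The 4 siY14 libraries differed among themselves, and by how much depended on the member. For 6 of the 8 recovered members, DOCK4, DOCK5, DOCK6, DOCK9, FGD2 and FGD4, libraries b and d both lay below a and c, for FGD6 both lay above, and FGD1 showed no such order. Over the 9838 recovered genes whose mean reached 10, b and d both lay below a and c for 36.7% and above for 46.1%. The gap was wide for FGD2, whose libraries a and c were at 97.4% and 91.2% of the mean siCtrl level and b and d at 39.0% and 38.8%. It was narrow for DOCK4, with 155% and 153% against 151% and 148%. For FGD4 the 4 libraries were at 82.8%, 64.5%, 78.2% and 65.7%, in the order a to d. For DOCK5, DOCK9 and FGD2 the SD of the siY14 arm thus covers the distance between these pairs of libraries. The siY14 reads of DOCK5, DOCK6 and DOCK9 are the likeliest of several sets. That choice drew on how the libraries of other genes vary together, so it may itself favour the pairs. For FGD2 only 1 set gave the mean.

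**Figure D3:**
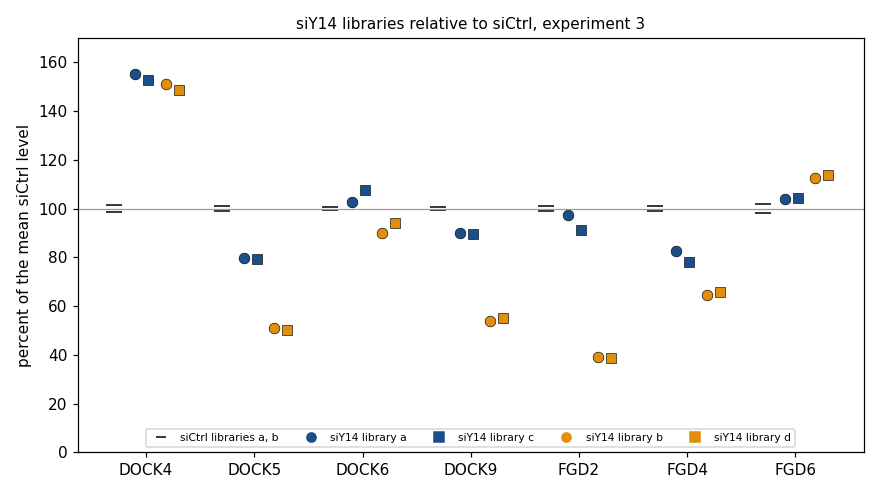
Level of 7 members in each siY14 library as a percent of the mean siCtrl level of experiment 3 (vertical axis, from 0). Dashes are the siCtrl libraries, blue symbols siY14 libraries a and c, and orange symbols b and d. For DOCK5, DOCK9 and FGD2 libraries b and d lie between 38.8% and 55.2%, while all 4 siY14 libraries of DOCK4 lie between 148% and 155%. The reads of DOCK5, DOCK6 and DOCK9 are the likeliest of several possible sets.

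The members are long genes with many exons. The DOCK members span 63.2 kb to 547 kb and have 48 to 53 exons in their longest coding transcript in GENCODE 29, and the FGD members span 23.4 kb to 247 kb with 16 to 21 exons. Their median span was 233 kb, against 33.2 kb over 11986 protein-coding genes with a mean of at least 10 in the siSOX9 table, and 8 of 9 lay above that median. FGD2, with 23.4 kb, is the shortest member and the one below it. DOCK4 spans 480.3 kb.

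The other DOCK and FGD genes were read from a list of 8. After SOX9 knockdown 1 of them changed, FGD3, which fell from a mean of 811 ± 37.5 (SD, n = 3) normalised reads to one of 514 ± 23.7 (SD, n = 4), a log2 difference of -0.66 (adjusted p = 0.0281 per the authors' deposited table). After Y14 knockdown 0 rose, and DOCK8 and DOCK11 were among those that fell. DOCK8, a CDC42 factor best known from immune cells, fell from 4130.4 ± 103 (SD, n = 2) to 2544 ± 611 (SD, n = 4), a log2 difference of -0.70 (adjusted p = 0.0208 per the authors' deposited table). Its siY14 libraries a to d held 3096, 2104, 3043 and 1934, so this SD covers the distance between a high and a low pair. For DOCK8, 2 sets of whole reads gave the siY14 mean and 3 the siSOX9 mean, and the likeliest was kept. DOCK11, a relative of DOCK9, fell from 184 ± 4.49 (SD, n = 2) to 111 ± 17.6 (SD, n = 4), a log2 difference of -0.73 (adjusted p = 0.0240 per the authors' deposited table). DOCK2, the leukocyte member, had a single read in the siSOX9 table and was listed at 0 in the other. DOCK8 held 3570.4 to 4077 normalised reads in the siSOX9 libraries, while all 10 blood cell markers together summed to 90.2 in that arm.

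Beyond the exchange factors of both families, the wider pathway was read from 5 more lists of adaptors, GTPases, Dbl-type exchange factors, GAPs with GDIs, and effectors. With the other DOCK and FGD genes they hold 101 symbols, of which 100 were read at least once in the siSOX9 comparison and 96 in the siY14 comparison. With siSOX9, 6 of 100 passed the authors' adjusted p of 0.05, 0 higher and 6 lower, beside 3.47% of all genes. The median log2 difference of the 90 with a mean of at least 10 was -0.03. With siY14, 15 of 96 passed, 2 higher and 13 lower, beside 9.16% of all genes, and the median of the 92 with a mean of at least 10 was -0.19. The shares of all genes are over 18747 and 17706 genes with reads, of which 13649 and 13444 reached that mean. A smaller part of all genes than of the pathway genes thus reached it, so the bases of these shares are unlike.

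Among the adaptors and their partners, MYO10, a motor of filopodia, fell by 0.67 on the log2 scale after SOX9 knockdown (adjusted p = 0.00772 per the authors' deposited table). BCAR1, the scaffold p130Cas that binds CRK, rose by 0.77 after Y14 knockdown (adjusted p = 0.00798 per the authors' deposited table), and the others of the 11 passed in neither table. Of the 11 GTPases, 0 passed in the siSOX9 table. CDC42 itself passed in the siY14 table, falling from 19930 to 11589 mean normalised reads in the authors' deposited table (log2 fold change -0.78, adjusted p = 2.56e-04). CDC42, BCAR1 and RACGAP1 have pseudogene copies with which they may share reads, so their values are uncertain.

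Of the 21 Dbl-type exchange factors, ARHGEF7, known as beta-PIX, fell after SOX9 knockdown from a mean of 3217 ± 59.7 (SD, n = 3) normalised reads to one of 2103 ± 97.1 (SD, n = 4), a log2 difference of -0.61 (adjusted p = 0.0216 per the authors' deposited table). Its siSOX9 SD rests on the likeliest of 2 sets of whole reads. After Y14 knockdown 3 fell, VAV3 by 0.84, KALRN by 0.70 and PLEKHG1 by 0.65 in log2 units, per the authors' deposited table. Of the 16 GAPs and GDIs, 2 fell after SOX9 knockdown. SRGAP1, a GAP of the SLIT-ROBO pathway, fell from 1339 ± 79.7 (SD, n = 3) to 696 ± 55.0 (SD, n = 4), a log2 difference of -0.94 per the authors' deposited table, and CHN1, a RAC GAP, fell by 0.72. After Y14 knockdown RACGAP1, a GAP of dividing cells, fell by 0.51 per the authors' deposited table.

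Of the 33 effectors with reads in the siSOX9 table, 1 fell and 0 rose. This was WASL, which encodes N-WASP, an activator of actin branching, and it fell by 0.68 in log2 units, per the authors' deposited table. After Y14 knockdown 5 of 32 fell and 1 rose. WASL fell by 0.54 there and WASF1, a WAVE protein downstream of RAC, by 0.65, per the authors' deposited table. The CDC42-binding genes CDC42BPA and CDC42EP3 fell by 0.56 and 0.55, the WAVE complex gene ABI2 fell by 0.51, and CDC42EP2 rose by 0.73, all per the authors' deposited table. WASL was the only gene of the 6 lists that passed in both tables.

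With limma-voom on the recovered reads, the alternative that allows libraries to be left out, 14 of 61 pathway genes passed with siSOX9 (3 higher, 11 lower). With siY14 it was 15 of 61 (4 higher, 11 lower). Genes without recovered knockdown reads, among them CDC42, MYO10 and BCAR1, are not in these 61. The share of all recovered genes that passed in these fits is not reported here, so nothing is read from the counts about the pathway. Leaving out single libraries took the siSOX9 count from 7, without siSOX9 library d, to 20, without siSOX9 library a. All 5 and all 9 recovered genes that had passed the authors' threshold passed limma's adjusted p as well. With a term for the deepest library of each arm, the siSOX9 count was 28 (8 higher, 20 lower). The siY14 count was 9 without siY14 library b and 7 without d, with 5 and 4 of the 9 kept. Without either siCtrl library of experiment 3 it was 0 of 61, in a fit that takes the spread of the lone siCtrl library from the siY14 libraries; 14 and 16 had an unadjusted p under 0.05.

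**Figure D4:**
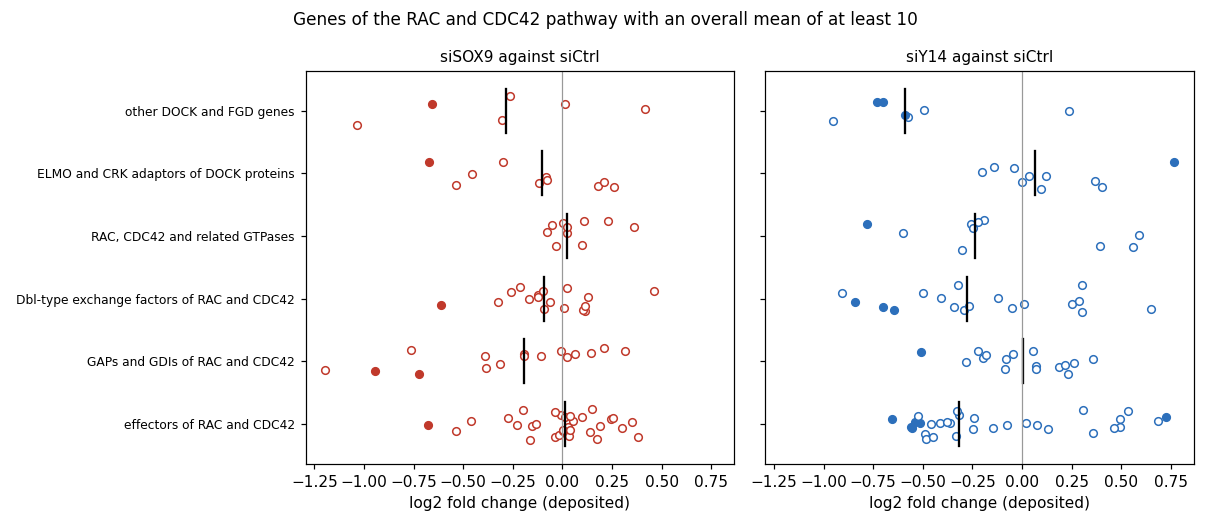
Log2 fold change from the deposited tables (horizontal axis) for the genes of the 6 pathway lists with an overall mean of at least 10, siSOX9 at the left and siY14 at the right. Each point is a gene, filled where it passed the authors' adjusted p of 0.05, and black bars are list medians. The 6 filled genes at the left all lie below 0, and 13 of the 15 at the right do.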

How the data were processed

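Polyadenylated RNA of 13 DLD-1 samples was sequenced. Per the submitters' processing notes, the tools were DESeq, HTSeq, SAMtools, HISAT2, Bowtie and TopHat2 and the build was hg19. Their versions and settings, and any counting by strand, are not given in the sources used here. What was deposited are 2 comparison tables. Per the file headers they hold, for each gene symbol, a signal per arm and over all libraries (mean reads after division by size factors), the fold change as a ratio, the log2 of that ratio, and p-values before and after adjustment. The weights of the arm means in the overall mean gave 3 siCtrl and 4 siSOX9 libraries, and 2 siCtrl and 4 siY14 libraries. Per-sample columns that went unused numbered 0. RBM8A, listed at 0, was not analysed here.

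The main values are the authors' deposited fold changes, with their adjusted p of 0.05 as threshold for genes that are no members. The members, pathway lists, marker lists and tests were chosen with earlier results of these data known. Named pathway genes are those past that threshold with an overall mean of at least 10, at most the 6 largest per list and table. For DOCK4 and FGD2 the 3 genes with the nearest pair of log2 fold changes were named, among genes with a mean of at least 100 in both tables.

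Deposited arm means carry 15 digits and are weighted sums of whole reads. Sets of whole reads that gave an arm mean were enumerated, with the fold change as a further constraint, and the likeliest was accepted at a likelihood share of at least 99%. Likelihood was judged by closeness of the normalised reads within an arm, first with a coefficient of variation of 20% and then with the covariance of recovered genes, multiplied by 3, so standard deviations of high means may be too small. Reads were recovered in both arms for 15279 genes (81.5%) and 14099 genes (79.6%). Of 600 simulated means per arm, 595 and 360 were accepted in the siSOX9 table (siCtrl, siSOX9) and 600 and 401 in the siY14 table, 0 of them wrong. The simulated libraries took their deviations from recovered genes, the same ones that gave the covariance. Wrong sets for genes whose libraries vary in another way were therefore not tested. Of 600 means per arm shifted off a whole-read sum, 15, 40, 0 and 79 were accepted.

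As an alternative, limma 3.58.1 (voom) in R 4.3.3 was run on the recovered reads, for means of 10 or more, with library sizes from the deposited normalisation and adjusted by Benjamini-Hochberg. Tested on simulated data, it recovered 98 of 100 genes set to a 2-fold difference in the siSOX9 design (10123 genes, 12 false calls) and 92 of 95 in the siY14 design (9773 genes, 4 false calls). The simulated libraries varied independently, with the same dispersion for every gene and without the pairs seen among the siY14 libraries. How limma behaves on such pairs was not tested. Other alternatives were pseudocounts of 1 and 10, centring on the median, thresholds of 0.1 and 0.01, a filter on low means, leaving out libraries, and a term for the deepest library of each siSOX9-table arm. Transcript lengths came from GENCODE 29 and promoters from RefSeq (GRCh38.p14). No protein sequence was used here. Values of some listed genes are not reported here.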

Additional observations from a re-analysis of the deposited data

Results flagged for a closer look

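In the 16 knockdown arms of 4 recovered libraries that the members gave, 1 library stood apart by Dixon's criterion. DOCK5 had 2569 normalised reads in siSOX9 library c, while the other siSOX9 libraries held 2308 to 2344. Chance alone sets apart about 1 in 20 such arms. Among the other recovered members, library c was the highest siSOX9 library for DOCK4, DOCK9, FGD1 and FGD6, the lowest for FGD2, and neither for DOCK6 and FGD4. Without it the log2 difference of DOCK5 in the siSOX9 table was the lower end of a range of -0.53 to -0.46 over all left-out libraries.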

How the results depend on the processing

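All 166 alternative values of the members' log2 differences (pseudocounts, centring, each library left out, and both deepest libraries of the siSOX9 table left out) lay within the spread between libraries of the main value. For single left-out libraries this was close to fixed in advance, since leaving out 1 library moves an arm mean by less than the SD of its libraries. No conclusion is drawn from it. Leaving out each library in turn kept DOCK4 at 1.34 to 1.52 and 0.58 to 0.63 and FGD2 at -1.87 to -1.66 and -0.83 to -0.40 in the siSOX9 and siY14 tables. The sign turned under some left-out library for FGD1 (-0.53 to 0.26) and FGD4 (-0.15 to 0.02) in the siSOX9 table and for DOCK6 (-0.07 to 0.02) in the siY14 table, none of which had been called. DOCK1 could not be recomputed without single libraries.

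The number of members called went from 2 to 4 in the siSOX9 table and from 1 to 3 in the siY14 table at an adjusted p of 0.1, and to 0 in the siY14 table at 0.01, by construction of the threshold. Adjusted over genes with a mean of at least 10, it was 3 in the siSOX9 table, with DOCK6 added below siCtrl, and 1 in the siY14 table. The number of pathway genes called went from 6 to 3 and from 15 to 4 at 0.01. With limma-voom the siSOX9 count was 14, 27 without the deepest library of each arm and 28 with a term for these libraries, chosen after seeing the data. The limma-voom counts have no share of all genes beside them. Leaving out each library in turn gave 7 to 20 in the siSOX9 table, 20 without siSOX9 library a, 10 without siCtrl library a or siSOX9 library c, 9 without siCtrl library c or siSOX9 library b, 8 without siCtrl library b and 7 without siSOX9 library d. It gave 0 to 21 in the siY14 table, with 0 without siCtrl library a or b (14 and 16 at an unadjusted p under 0.05), 9 without siY14 library b and 7 without d. There the lone siCtrl library is assumed to vary like the siY14 libraries, and fewer samples remain; for the other shifts the cause was not tested. No paired analysis was possible because the deposited tables pool the libraries of an arm and recovered libraries carry no replicate or experiment number. Depth limits FGD1, with at most 34 reads in a library.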
